A study of Rattus norvegicus with 2 samples.

Results

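The genes described here are Tgfb1, which encodes the cytokine TGF-beta 1, its receptors Tgfbr1 and Tgfbr2, and 4 genes of the feedback and response to it, Smad7, Skil, Tgif1 and Pmepa1. They were chosen by symbol with earlier results of these data known, and the 7 genes are 7 of the 26976 gene symbols measured. Each symbol stood on 1 row of the count matrix. The study placed a polyurethane scaffold patch carrying human amniotic epithelial stem cells on infarcted rat hearts and measured single CD45+ cells, that is leukocytes, sorted from the left ventricle. The labels give 1 sample of wt rats with myocardial infarction (MI) and 1 sample of wt rats with infarction and the patch (MI+PUR-hAESC), both taken 7 days after the operation. Both samples therefore share the infarction, and neither an unoperated heart nor a scaffold without cells is among them. The labels name no strain, age or number of hearts per sample.

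TGF-beta 1 is made as a latent protein and must be released before it binds the type II receptor, which recruits and phosphorylates the type I receptor. The type I receptor then phosphorylates Smad2 and Smad3, which enter the nucleus with Smad4 and switch genes on or off. In a healing infarct the pathway is known for restraining inflammation and for driving fibroblasts to lay down scar, and in lymphocytes it is known for restraining activation and for tissue residency. Smad7 blocks the type I receptor, Skil (SnoN) and Tgif1 are nuclear proteins that repress Smad target genes, and Pmepa1 encodes a membrane protein that holds receptor Smads away from the receptor. All 4 are among the genes that TGF-beta itself can induce, so they serve as feedback and as readouts.

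The deposited matrix pools the samples, and its barcodes end in 1 of 2 suffixes, called library 1 and library 2 here. Neither suffix could be tied to MI or to MI+PUR-hAESC, so the libraries are compared without a group name. Each is 1 library with no replicate. Differences between them have no replicate check and no test. The 95% intervals given are exact Poisson or exact binomial (Clopper-Pearson) intervals that cover counting error only. Filtering for poor barcodes and doublets left 13334 and 14434 cells, with medians of 3635.5 and 4283.0 UMIs (unique molecules counted) per cell. The libraries shared 71 barcode sequences before that filter. Cells were gated by UMIs of lineage markers, none of which is one of the 7 genes: 2147 and 3355 T cells, 1220 and 1924 natural killer (NK) cells, 771 and 1586 B cells and 7401 and 4715 myeloid cells in library 1 and library 2. The gates held what they were built on, for example Cd3e at 958 and 886 CPM (counts scaled to the total UMIs of the class) in T cells against at most 9.66 CPM in NK, B and myeloid classes. Neutrophils were 3742 of the myeloid cells in library 1 and 1408 in library 2, so the pooled myeloid level moves with that makeup, and the finer classes are given beside it.

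Pmepa1 was lower in library 2 than in library 1 in all 3 lymphocyte classes, by 1.83-fold in T cells, 1.70-fold in NK cells and 1.78-fold in B cells. In T cells Skil was also lower by 1.55-fold and Smad7 by 1.52-fold. Tgfb1 itself and the receptors differed by less than 1.5-fold in T, NK and B cells, where Tgfbr1 was too low to compare. Ratios are of CPM + 10, over genes at 20 CPM or more in either library, and a gene past 1.5-fold is counted as lower or higher. The 7 genes were chosen with earlier results of these data known, so the shares that follow are a description and no independent support. In T cells 3 of the 6 genes at that level were lower, where 0.788% of all 5333 genes compared were, and none was higher, where 0.713% were. In NK cells it was 1 of 6 lower against 1.51% of 5567 genes, and none higher against 1.83%. In B cells it was 1 of 6 lower against 0.697% of 5594 genes, and none higher against 0.876%. In the pooled myeloid cells none of 7 was lower or higher, against 1.85% and 4.07% of 5288 genes. The median log2 ratio over all 7 genes was -0.29 in T cells, -0.16 in NK cells, -0.15 in B cells and -0.05 in myeloid cells. It includes Tgfbr1, which was under 20 CPM in T, NK and B cells. Over all genes compared, which are only those at 20 CPM or more, the median was -0.04, -0.03, -0.02 and 0.06.

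Pmepa1, Skil and Smad7 were each lower in library 2 in all 3 lymphocyte classes with intervals apart. The bases around the annotated start sites of Pmepa1 and Skil, both known Smad targets, are shown, and those of Smad7 are not. The stretches run from 250 bases before the start to 50 after it, 5′ to 3′ on the gene's strand, from RefSeq on rat build GRCr8. Pmepa1 lies at chr3:182478600-182478899 and Skil at chr2:114203523-114203822, both on the minus strand. Capitals mark GTCTG on either strand (CAGAC on the other), a short sequence that Smad3 and Smad4 can bind, and TGACGTCA, the cyclic AMP response element.
Pmepa1: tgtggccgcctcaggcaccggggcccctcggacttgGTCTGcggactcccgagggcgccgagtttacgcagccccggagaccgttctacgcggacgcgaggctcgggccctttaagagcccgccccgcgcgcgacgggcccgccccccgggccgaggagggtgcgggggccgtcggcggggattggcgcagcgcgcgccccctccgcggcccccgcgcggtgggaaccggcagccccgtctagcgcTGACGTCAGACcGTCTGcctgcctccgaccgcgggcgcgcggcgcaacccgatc
Skil: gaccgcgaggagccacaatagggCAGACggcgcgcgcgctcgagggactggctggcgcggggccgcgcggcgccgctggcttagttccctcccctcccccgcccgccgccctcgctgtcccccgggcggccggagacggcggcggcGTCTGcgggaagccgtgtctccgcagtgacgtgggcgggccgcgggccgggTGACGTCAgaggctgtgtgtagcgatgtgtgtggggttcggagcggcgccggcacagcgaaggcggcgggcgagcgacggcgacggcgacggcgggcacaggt
The Pmepa1 stretch held 3 matches of GTCTG and the Skil stretch 2, where 50.1% of all 33469 RefSeq promoters of this length held at least 1, so such a match is common. Each stretch held 1 copy of TGACGTCA, starting 4 bases before the Pmepa1 start and 53 bases before the Skil start, and 1.83% of promoters held it. In Pmepa1 that copy shares 2 bases with a CAGAC. This second sequence was looked for only after the stretches had been read, and of the 2 longest runs of letters the stretches share, both 10 bases long, TGACGTCAGA extends it and stood in 60 promoters, while CGCGCGGCGC stood in 176. The longer Smad sequence GTCTAGAC was in neither stretch and in 0.197% of promoters. The promoters of Tgfb1, Tgfbr1 and Tgfbr2 held none of the 3 sequences. Matches of letters are a description and show no binding. Tgif1 had no entry in the promoter table, and Smad7 was not searched.

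Tgfb1, the ligand, was highest in NK and dendritic cells and lowest in neutrophils in both libraries. In NK cells it was 543 CPM in library 1 (interval 525 to 563) and 506 CPM in library 2 (492 to 521). In dendritic cells, 132 and 75 cells, it was 479.7 and 542 CPM. The intervals of NK and dendritic cells lay apart in library 1 and overlapped in library 2, so the 2 classes cannot be put in order over both libraries. Classical monocyte-like cells, gated by Fcnb, Vcan and similar genes, had 410.5 and 366 CPM. The Adgre4 monocyte class, patrolling-type cells by that marker, had 421 and 357 CPM. Macrophages had 361 and 409 CPM, the one of the 8 finer classes in which library 2 was the higher with intervals apart. T cells had 294 and 265 CPM and B cells 246 and 223 CPM. Neutrophils stood far below every other class at 72.1 and 69.2 CPM. In neither library did the neutrophil interval come near that of any other class. No class reached 1.5-fold for Tgfb1, and its log2 ratio ran from -0.23 in Adgre4 monocytes to 0.18 in macrophages. The pooled myeloid level, 305 and 336 CPM, was higher in library 2, where fewer of the cells were neutrophils.

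**Figure D1:**
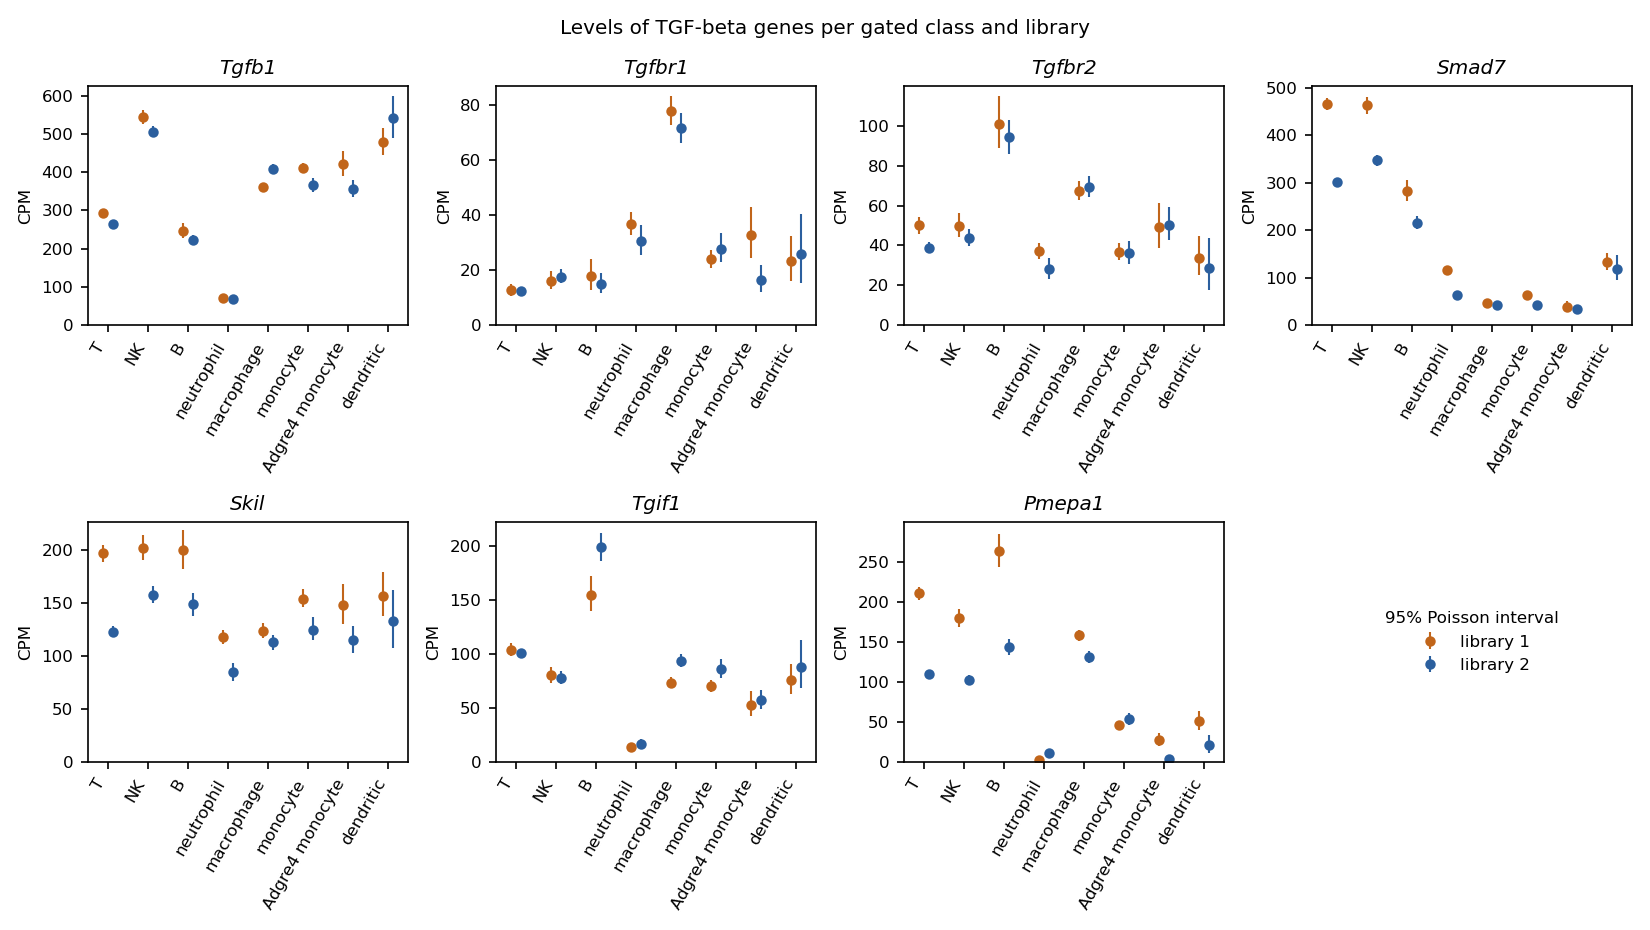
Level of each of the 7 genes in CPM (vertical axes, linear from 0) in 8 gated classes, with library 1 in orange, library 2 in blue and 95% Poisson intervals as bars. Pmepa1 is at 211 and 110.2 CPM in T cells and stays under 11 CPM in neutrophils, while Tgfb1 is highest in NK and dendritic cells and lowest in neutrophils in both libraries.

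The receptors were highest in different classes. Among the 8 finer classes Tgfbr1, the type I kinase that starts Smad signalling, was highest in macrophages. It was 77.9 CPM there in library 1 (72.8 to 83.3) and 71.6 CPM in library 2 (66.4 to 77.1). No other class of the 8 overlapped macrophages in either library. Neutrophils followed at 36.7 and 30.8 CPM, and classical monocytes had 24.0 and 27.8 CPM. Myeloid cells in none of the finer gates had 81.3 CPM in library 1 (72.6 to 90.8), which overlapped macrophages. In library 2 they had 50.1 CPM (42.5 to 58.7), a log2 ratio of -0.60 with intervals apart. Among lymphocytes Tgfbr1 was near the limit of what these counts can show, and T, NK and B cells could not be ordered firmly. T cells had 12.7 and 12.3 CPM, NK cells 16.1 and 17.7 CPM, and B cells 17.9 and 15.1 CPM, with overlapping intervals between neighbours in both libraries. In Adgre4 monocytes Tgfbr1 was 32.8 CPM in library 1 (24.5 to 43.0) and 16.5 CPM in library 2 (12.2 to 21.9), a log2 ratio of -0.69 that rests on 52 and 48 UMIs. The 12 macrophage markers summed to 6056 and 2319.7 CPM in the same class, and the part of macrophage RNA in the Tgfbr1 ratio was not tested. Tgfbr1 and Pmepa1 were the 2 of 7 genes lower in this class, where 4.09% of 5381 genes were lower. No gene of the 7 was higher there, against 5.15%.

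Among the 8 finer classes Tgfbr2, the type II receptor that binds the ligand first, was highest in B cells. It was 101 CPM there in library 1 (88.8 to 115) and 94.1 CPM in library 2 (85.6 to 103). Macrophages came next at 67.4 and 69.4 CPM. Both stood apart from their neighbours in both libraries. T cells had 49.997 and 38.9 CPM, a log2 ratio of -0.29 with intervals apart, and NK cells had 49.98 and 43.7 CPM with intervals that overlap. The remaining classes of the 8 ran from 28.0 to 50.3 CPM and mostly overlapped their neighbours. Macrophages were thus the class of the 8 in which both receptors stood among the top 2, while B cells, first for Tgfbr2, were among the lowest for Tgfbr1.

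Smad7, the inhibitor that docks on the type I receptor, was highest in T, NK and B cells among the 8 classes. T cells had 465 CPM in library 1 (453 to 478) and 302 CPM in library 2 (294 to 309.6). NK cells had 463 and 347 CPM, a log2 ratio of -0.40, and B cells 283 and 216 CPM, a log2 ratio of -0.37. The intervals of the libraries were apart in all 3 lymphocyte classes, although only T cells passed 1.5-fold. Macrophages, which had the most Tgfbr1 of the 8 classes, had 46.9 and 42.8 CPM of Smad7, and Adgre4 monocytes 39.1 and 33.8 CPM. Classical monocytes had 63.4 and 42.7 CPM with intervals apart. In neutrophils Smad7 was 116 CPM in library 1 (109 to 124) and 63.0 CPM in library 2 (55.7 to 71.1), a 1.73-fold difference. The cluster makeup of the class differed, since the cluster led by Gpnmb and Cxcl10 held 2703 of its 3742 cells in library 1 and 527 of 1408 in library 2. Smad7 was 125 and 84.1 CPM within that cluster, short of 1.5-fold, and 102 and 55.5 CPM in the one led by Stfa2, past it. It was the 1 gene of 5 at 20 CPM that was lower in neutrophils, where 5.46% of 3718 genes were lower and 4.09% higher. The log2 ratio of Smad7 was below 0 in all 8 classes.

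Skil, a Smad corepressor, was the most evenly spread of the response genes. NK cells were first of the 8 classes in both libraries, at 202 and 158 CPM, with intervals that overlap those of B cells in both. Neutrophils were last of the 8, at 118 and 84.6 CPM, and overlapped macrophages in library 1. Myeloid cells in none of the finer gates had 91.3 CPM (82.1 to 101) and 88.4 CPM (78.1 to 99.6). T cells had 197 CPM in library 1 (189 to 205) and 123 CPM in library 2 (118 to 128), and B cells had 199.99 and 149 CPM. T cells overlapped NK and B cells in library 1 and lay below both in library 2. Skil was below 0 on the log2 scale in all 8 classes, and intervals were apart in 6. Macrophages, at 124 and 113 CPM, and dendritic cells, at 157 and 133 CPM, were those with overlapping intervals.

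Tgif1, a homeobox repressor that binds Smad2, went the other way. B cells held most of it, 155 CPM in library 1 (139.8 to 172) and 199 CPM in library 2 (186 to 212). T cells had 104 and 101 CPM and NK cells 80.4 and 78.0 CPM, with no separation between libraries. Macrophages had 73.5 and 93.7 CPM and classical monocytes 70.4 and 86.1 CPM, both with intervals apart and higher in library 2. Tgif1 passed 1.5-fold in none of the 8 classes, and neutrophils, at 13.5 and 16.6 CPM, were below the level for comparison. It thus did not share the lower level of the other 3 response genes in library 2 lymphocytes.

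Pmepa1, the membrane-bound Smad trap, had the widest range over the 8 classes and the largest differences between libraries, both taken as ratios and not in CPM. B cells had 263 CPM in library 1 (243 to 285) and 143 CPM in library 2 (133 to 154). T cells had 211 CPM (202 to 219) and 110.2 CPM (106 to 115), and NK cells had 179.97 CPM (169 to 191) and 102 CPM (95.4 to 108). The intervals of the 2 libraries were far apart in each of these classes. Macrophages had 158 and 131 CPM, a log2 ratio of -0.25 with intervals apart, and were the only myeloid class near the lymphocyte level. None of the 7 genes was lower or higher by 1.5-fold in macrophages, where 0.993% and 2.63% of 5440 genes were. Classical monocytes had 46.1 and 53.4 CPM with overlapping intervals, and again none of the 7 passed 1.5-fold, against 2.68% lower and 5.40% higher of 5226 genes. Because the lymphocytes were lower in library 2 and the macrophages nearly level, macrophages moved from the fourth place in library 1 to the second place in library 2.

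Pmepa1 in the sparse myeloid classes rested on few molecules. Dendritic cells had 50.5 CPM in library 1 from 76 UMIs and 20.4 CPM in library 2 from 15 UMIs, a log2 ratio of -0.99. It was the 1 gene of 7 lower in dendritic cells, where 3.80% of 5494 genes were lower and 5.19% higher. Adgre4 monocytes had 27.1 CPM from 43 UMIs in 14 cells and 3.10 CPM from 9 UMIs in 6 cells. Macrophage markers moved the same way in both classes, as given above for Adgre4 monocytes, and summed to 1367 and 428 CPM in dendritic cells. Macrophages carry Pmepa1, and the part of macrophage RNA in these differences was not tested. In neutrophils Pmepa1 was 2.17 and 10.7 CPM, below the level for comparison.

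**Figure D2:**
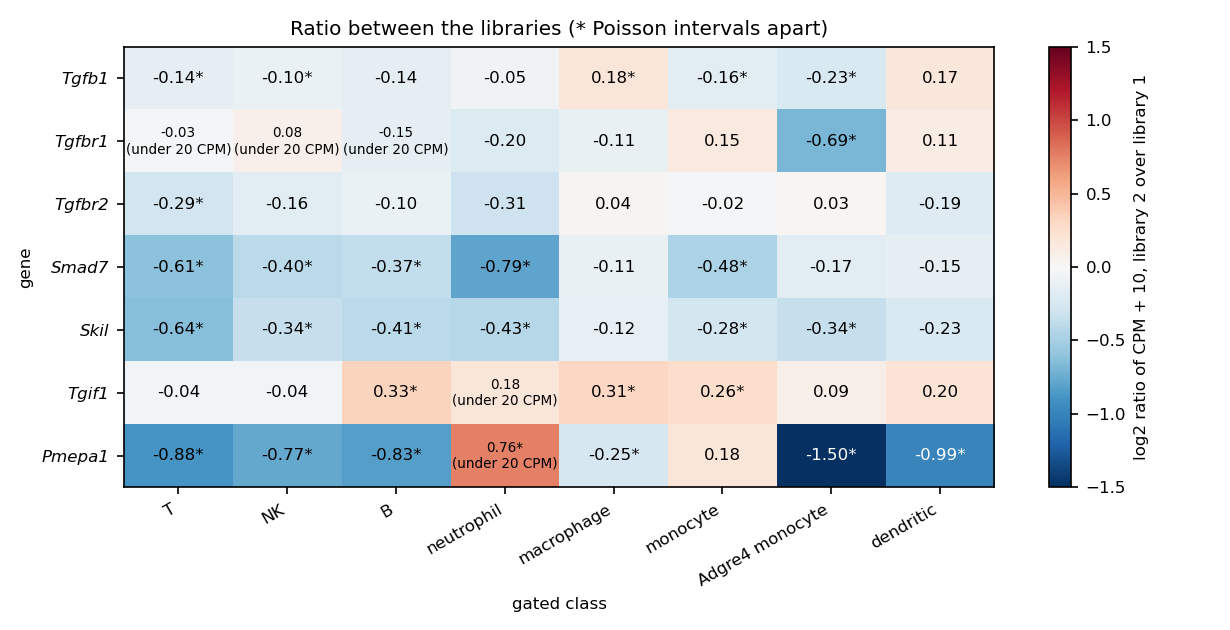
Log2 ratio of CPM + 10, library 2 over library 1, for the 7 genes (rows) in 8 classes (columns), blue for lower and red for higher in library 2, with a star where the Poisson intervals are apart. Pmepa1 is at -0.88, -0.77 and -0.83 in T, NK and B cells, and Smad7 and Skil are below 0 in every class.

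**Figure D3:**
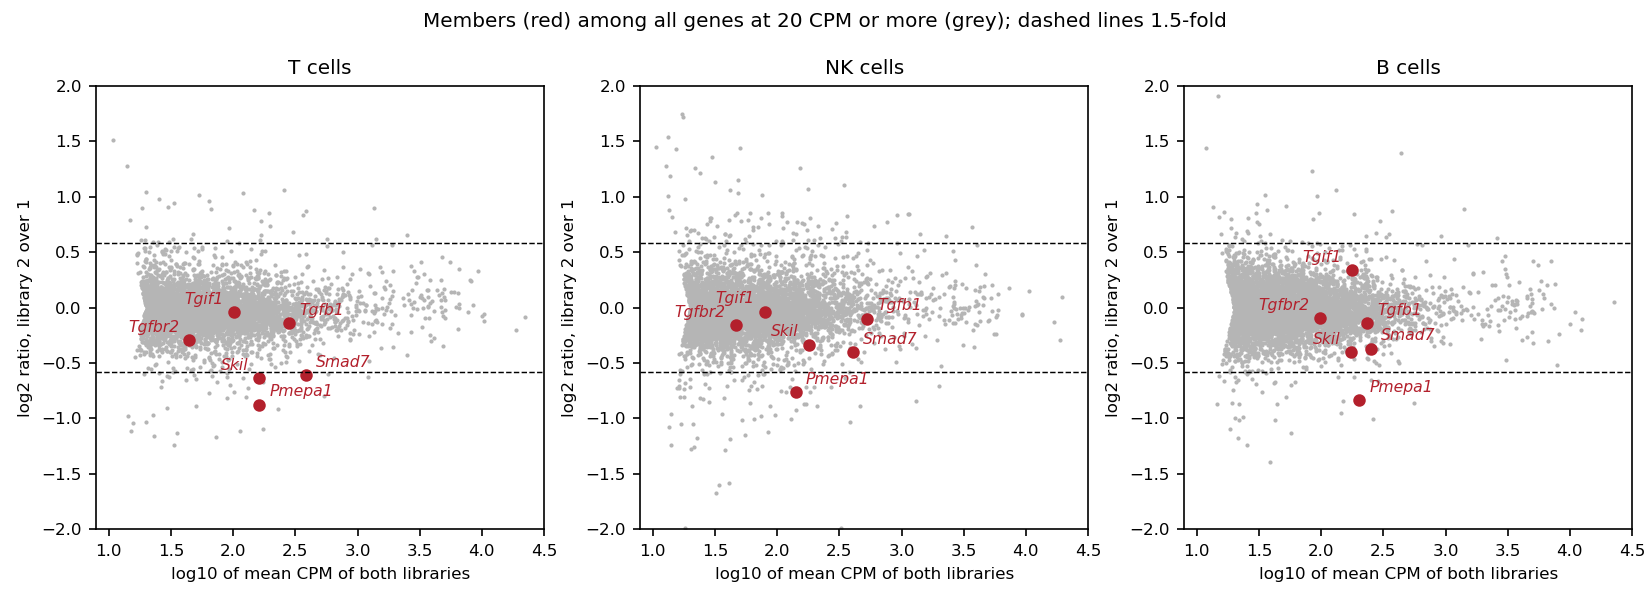
Log2 ratio (vertical axis) against log10 of the mean CPM (horizontal axis) of every gene at 20 CPM or more in T, NK and B cells, with the genes described here in red and genes beyond the axis limits not drawn. In T cells Pmepa1, Skil and Smad7 lie below the lower dashed line at 1.5-fold, which 0.788% of genes passed.

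Other RNA in the lymphocyte gates was measured the same way. The summed level of the 12 macrophage markers was 285 and 151 CPM in T cells, 269 and 169 CPM in NK cells and 434 and 247 CPM in B cells, most of it Apoe. Carried over in the ratio macrophages hold, that amount would bring 0.863 and 0.562 CPM of Pmepa1 into T cells, 0.815 and 0.628 CPM into NK cells and 1.31 and 0.918 CPM into B cells. Neutrophil markers, 10 in all, summed to 208 and 199.9 CPM in T cells, 494 and 234 CPM in NK cells and 282 and 313 CPM in B cells. Erythroid markers summed to 2.71 and 18.2 CPM in T cells, 4.69 and 10.6 CPM in NK cells and 1.702 and 730.4 CPM in B cells. Endothelial markers summed to 24.4 and 49.6 CPM, 68.7 and 13.5 CPM, and 62.1 and 54.2 CPM in the same order of classes. The part of these in the differences of the 7 genes was not tested. Platelets are a rich source of TGF-beta 1, and 5 platelet markers summed to 6.47 and 6.29 CPM in T cells, 14.2 and 14.5 CPM in NK cells and 9.36 and 11.8 CPM in B cells. In macrophages they summed to 1386 and 1140.5 CPM, nearly all of it Pf4, at 1385 and 1140.1 CPM. Ppbp, another of the platelet markers, was at 0 and 0.103 CPM there, and whether the Pf4 came from platelets was not tested. Fibroblast markers summed to at most 8.51 CPM in the lymphocyte classes. Immediate early genes, which respond to tissue digestion as well as to signals, had median log2 ratios of 0.12 in T cells, 0.33 in NK cells and 0.23 in B cells. The part of digestion in the levels was not tested.

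T cells were divided by the UMIs they held, since TGF-beta is known to act on regulatory and resident T cells. Cells with Foxp3, the regulatory T cell factor, numbered 61 and 106. Of the rest, those with Cd8a or Cd8b numbered 1300 and 2094, those with Cd4 237 and 306, and those with none of these 549 and 849. Pmepa1 in the Cd8a or Cd8b cells was 245 CPM in library 1 (234 to 257) and 98.5 CPM in library 2 (93.1 to 104). In the Cd4 cells it was 135 and 118 CPM, and in cells with none of these 158 and 141 CPM, with overlapping intervals in both. The lower Pmepa1 level of T cells in library 2 thus lay largely in the Cd8a or Cd8b cells, with log2 ratios of -1.23 against -0.18 and -0.15. Whether the sub-gates differ in this beyond chance was not tested. Foxp3 cells had 178 and 126 CPM with overlapping intervals.

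Skil and Smad7 had intervals apart between the libraries in the 3 larger sub-gates. Skil was 199.97 and 122 CPM in Cd8a or Cd8b cells, 212 and 131 CPM in Cd4 cells and 179 and 121 CPM in cells with none of these. Smad7 was 466 and 275 CPM, 435 and 313 CPM, and 490.0 and 383 CPM in the same order. The log2 ratios of Smad7 were -0.74, -0.46 and -0.35, so only the Cd8a or Cd8b cells passed 1.5-fold, while those of Skil were -0.67, -0.65 and -0.53. In Foxp3 cells Smad7 was 389.8 and 289 CPM and Skil 209 and 133 CPM, with intervals that overlap for both. Tgfbr2 was lower in library 2 in the Cd8a or Cd8b cells, at 49.3 and 34.5 CPM, and level in the Cd4 cells, at 52.3 and 49.3 CPM. Tgfb1 was higher in Cd8a or Cd8b cells, at 335 and 303 CPM, than in Cd4 cells, at 217 and 170.4 CPM, in both libraries.

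**Figure D4:**
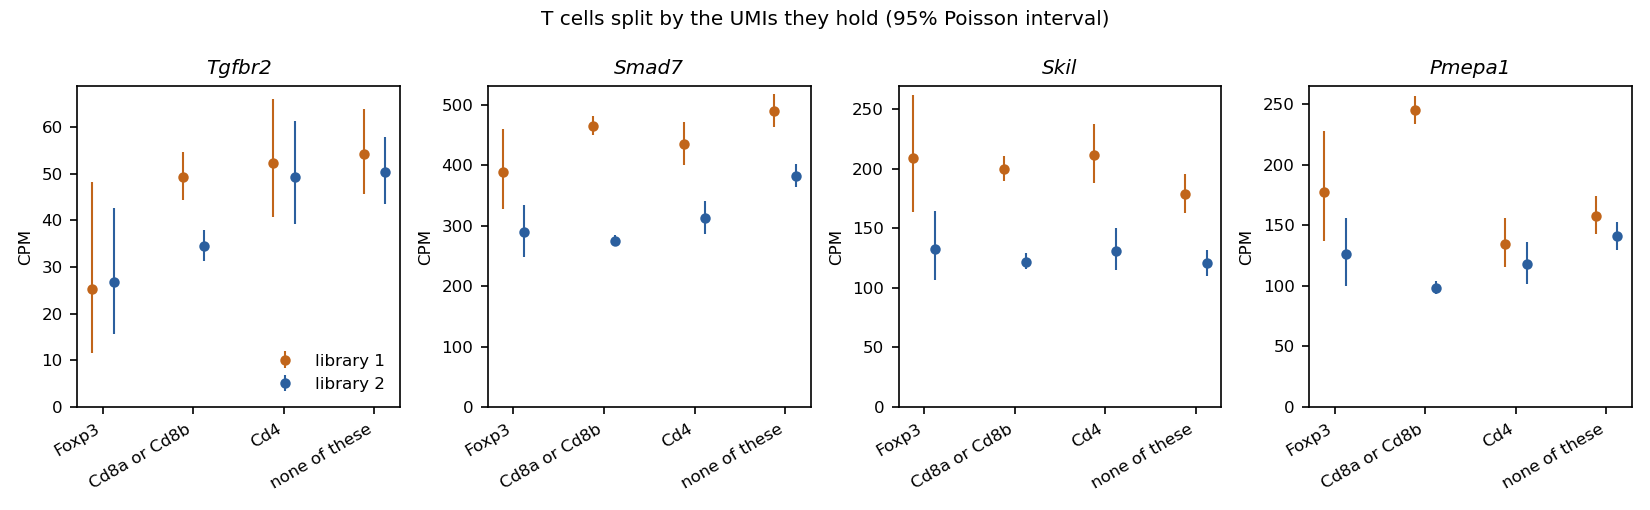
Levels in CPM (vertical axes, linear from 0) of Tgfbr2, Smad7, Skil and Pmepa1 in T cells with Foxp3, with Cd8a or Cd8b, with Cd4 and with none of these, library 1 in orange and library 2 in blue, with 95% Poisson intervals. Pmepa1 is at 245 and 98.5 CPM in Cd8a or Cd8b cells and at 135 and 118 CPM in Cd4 cells, and the Smad7 and Skil intervals overlap between libraries only in Foxp3 cells.

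A clustering of all cells gave 4 T cell clusters with at least 100 gated T cells in each library. Clusters drew on all genes, so these levels are a description. The largest, led by Cpa3, Klra22 and Ctsw, had 326 CPM of Pmepa1 in library 1 (309.7 to 342) and 139 CPM in library 2 (129.7 to 148). The cluster led by Il17a and Capg had 136 and 98.0 CPM, and that with Rab3ip and the naive-type genes Lef1 and S1pr1 among its leading genes had 185 and 149 CPM. The cluster led by Ccl5, Hopx and Gzma, effector-type genes, had only 33.4 and 17.3 CPM. Pmepa1 intervals of the libraries were apart in all 4 clusters, with library 2 past 1.5-fold lower in the largest and in the Ccl5 cluster. Smad7 intervals were also apart in all 4, at 547 and 343 CPM in the largest and 212 and 126 CPM in the Ccl5 cluster, and 3 passed 1.5-fold. Skil passed it in 2 of the 4, and in the Ccl5 cluster it was 53.6 and 57.6 CPM with overlapping intervals.

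NK cells showed the same contrast. The large NK cluster, with Ncr3 leading, had 223 CPM of Pmepa1 in library 1 (209 to 237) and 115 CPM in library 2 (108 to 123), with 966 and 1678 cells. The smaller one, led by Gzma and Gzmbl3 and with 194 and 176 cells, had 35.1 and 9.25 CPM from 31 and 8 UMIs. Gzma encodes a cytotoxic granule protease, and the T and NK clusters with Gzma among their leading genes were the lowest in Pmepa1 of those clusters. Skil was likewise lower there, at 60.03 and 63.6 CPM against 235 and 171 CPM in the large NK cluster. B cells fell almost wholly into 1 cluster, with 265 and 143 CPM of Pmepa1.

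The macrophage cluster led by Gpnmb and Apoe had 187 and 167 CPM of Pmepa1, and the one led by class II genes such as RT1-Db1 had 136 and 114 CPM. A smaller macrophage cluster, led by Fam117a and Rdm1 and with 119 and 133 cells, had 276 and 163 CPM from 63 and 38 UMIs, past 1.5-fold. Intervals of the libraries overlapped in all 3. In classical monocytes the Fcnb cluster had 13.1 and 21.9 CPM, and the cluster led by Ccl24 and Dmkn, in which Spp1 also led, had 95.8 and 133 CPM. The monocyte clusters were apart from each other in Pmepa1 within each library. Smad7 in the Fcnb cluster was 76.9 CPM in library 1 (69.2 to 85.3) and 36.8 CPM in library 2 (29.1 to 45.8), and in the Ccl24 cluster it was 53.6 and 76.4 CPM with overlapping intervals. Tgif1 in the Ccl24 cluster was 44.9 CPM in library 1 (36.6 to 54.4) and 73.7 CPM in library 2 (55.7 to 95.7), past 1.5-fold. The lower Smad7 level of library 2 monocytes was seen in the Fcnb cluster, and the difference between the clusters was not tested.

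Levels were also read as the share of cells with at least 1 UMI, after each cell was thinned to 1500 UMIs so that depth did not set the share. Pmepa1 was found in 25.7% of T cells in library 1, with an interval of 23.9 to 27.6%, and in 14.2% in library 2. NK cells had 22.2% and 13.01%, and B cells 26.1% and 15.3%. Neutrophils, with the lowest share in library 1, had it in 0.228% and 1.15%, and Adgre4 monocytes, with the lowest in library 2, in 2.05% and 0.165%. These low shares serve as the background. Without thinning the shares were 44.3% and 29.7% of T cells at medians of 4582.0 and 4907.0 UMIs, and 0.347% and 2.70% of neutrophils at 2233.0 and 2514.5 UMIs. Intervals of the libraries were apart in all 3 lymphocyte classes. Skil was in 26.1% and 16.2% of thinned T cells, 26.8% and 20.1% of NK cells and 26.6% and 17.7% of B cells. Smad7 was in 45.7% and 33.5% of T cells, 47.3% and 38.1% of NK cells and 31.4% and 24.9% of B cells, against 6.33% and 5.56% of macrophages. Tgfb1, in 32.4% and 29.6% of T cells and 53.4% and 50.5% of NK cells, had overlapping intervals between libraries in both classes.

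**Figure D5:**
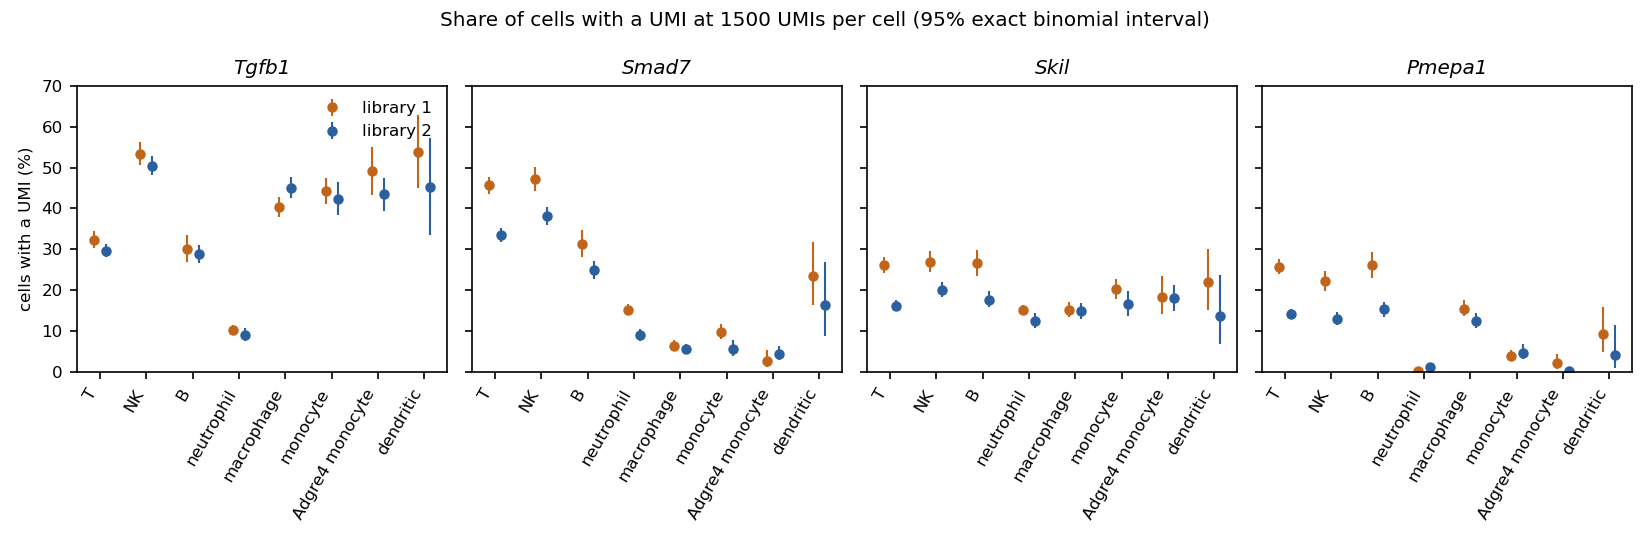
Share of cells with at least 1 UMI (vertical axis, percent) of Tgfb1, Smad7, Skil and Pmepa1 after thinning to 1500 UMIs per cell, in 8 classes, library 1 in orange and library 2 in blue, with 95% exact binomial intervals. Pmepa1 is in 25.7% and 14.2% of T cells and in 1.15% of neutrophils or fewer.

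Skil and Smad7 UMIs were more frequent in T cells with a Pmepa1 UMI than in those without, in both libraries. In library 1, Skil was found in 36.4% of thinned T cells with Pmepa1 (32.4 to 40.6%) and in 22.5% of those without it (20.5 to 24.7%). In library 2 it was 24.1% and 14.9%, again with intervals apart. Smad7 was found in 55.4% of Pmepa1 cells and 42.3% of the others in library 1, and in 44.6% and 31.6% in library 2. The clusters above differ in all 3 genes, and what share of this they make up was not tested. In NK cells of library 1 Smad7 stood at 58.8% and 44.0%, and in library 2 at 42.9% and 37.4% with overlapping intervals. B cells showed no such split for Skil, at 28.1% and 26.1% in library 1 and 18.0% and 17.7% in library 2.

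Macrophages were the class with most Tgfbr1 among the 8. In library 1 Pmepa1 was found in 22.1% of thinned macrophages with a Tgfbr1 UMI (15.6 to 29.7%) and in 14.8% of those without (12.9 to 16.9%). In library 2 it was 23.8% (17.2 to 31.5%) and 11.2% (9.53 to 13.1%), with intervals apart there only. The macrophage clusters differ in both genes. Tgfbr1 was 95.7 and 90.3 CPM in the Gpnmb cluster, the one with more Pmepa1, and 67.8 and 62.4 CPM in the class II cluster. What share of the split the clusters make up was not tested. Tgfb1 UMIs made little difference to Pmepa1 in macrophages, at 15.7% and 15.4% in library 1 and 14.4% and 11.02% in library 2. After thinning Tgfbr1 and Tgfbr2 were each found in 9.97% of macrophages in library 1, and in 10.5% and 10.1% in library 2. At that depth few cells could show both. Tgfbr2 was in 12.4% of macrophages that had Tgfbr1 and 9.70% of those without in library 1. In library 2 it was in 14.3% and 9.63%, and intervals overlapped in both libraries.

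The wider pathway was read through a list of 57 further genes of ligands and their activation, receptors, Smads and regulators, and response genes. This list too was chosen with earlier results of these data known, so its counts are a description. In T cells 19 of them reached 20 CPM, of which 3 were lower in library 2 and none higher, beside 0.788% and 0.713% of all genes. Ldlrad4, a membrane inhibitor of Smad signalling related to Pmepa1, was 68.4 and 32.4 CPM. Furin, the protease that cleaves the TGF-beta 1 precursor and is itself induced by TGF-beta, was 94.0 and 55.3 CPM. Cxcr6, a chemokine receptor of resident lymphocytes, was 53.2 and 30.2 CPM. The median log2 ratio of the 19 was -0.19. Not all response genes went that way, since Id2, an inhibitor of helix-loop-helix factors that TGF-beta represses in many cells, was 98.2 and 132 CPM.

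In NK cells 1 of 18 was lower and none higher, beside 1.51% and 1.83% of all genes. Rgs16, a regulator of G protein signalling, was 95.5 and 54.6 CPM, while Id2, at 169 and 255 CPM, and the cell cycle inhibitor Cdkn1a, at 135 and 201 CPM, were higher in library 2 but short of 1.5-fold. Smad2, a receptor-activated Smad, was 62.8 and 51.1 CPM. In B cells none of 15 was lower or higher, beside 0.697% and 0.876%. Junb, an AP-1 subunit that is also an immediate early gene, was 2414 and 3241 CPM, and Smad2 was 63.8 and 47.9 CPM with overlapping intervals. The shared Smad, Smad4, was 58.3 and 49.99 CPM, and Usp15, a deubiquitinase of the pathway, 143 and 125 CPM.

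In pooled myeloid cells 3 of 24 were lower and none higher, beside 1.85% and 4.07%. Thbs1, thrombospondin 1, which can release TGF-beta 1 from its latent form, was 161 and 26.8 CPM, a log2 ratio of -2.22 that held in neutrophils, at 80.2 and 12.3 CPM, and in classical monocytes, at 543 and 126 CPM. Thbs1 is 1 of the genes of the monocyte gate. Id1, a BMP and TGF-beta response gene, was 269.9 and 156 CPM in pooled cells, but 186 and 174 CPM in classical monocytes and 813 and 559 CPM in neutrophils, so that its pooled ratio moves with the neutrophil share. Nrros, which tethers latent TGF-beta 1 on myeloid cells, was 84.9 and 120.3 CPM, and Id3 85.2 and 129 CPM, both short of 1.5-fold.

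Genes with patterns most like those of the 7 over 8 classes and 2 libraries were ranked by Pearson's r of log2 levels over these 16 points, among 4645 genes. The points share libraries and depth, so r is a description. Tgfb1 was closest to Bag1 (r = 0.98), Tacc1 (0.97) and Lman1 (0.96). Tgfbr1 was closest to the macrophage-high genes Zfhx3 (0.90), Apobec1 (0.88) and Ch25h (0.88), and Tgfbr2 to Ash1l (0.89), Rad17 (0.88) and Abcg1 (0.87). Smad7 was closest to Sept1 (0.97), B4galnt1 (0.96) and Rasa2 (0.95), and Skil to Usp9x (0.87), Thrap3 (0.86) and Brd1 (0.86). Tgif1 was closest to Ddx54 (0.98), Smarca4 (0.97) and Tbca (0.97), and Pmepa1 to Jund (0.91), Nit2 (0.90) and Phyh (0.90). Among the 7 themselves the highest r was 0.77, between Pmepa1 and Tgif1, and the lowest -0.66, between Tgfbr1 and Smad7. The ligand was nearly unrelated to its receptors over the classes, with r of -0.07 for Tgfbr1 and 0.09 for Tgfbr2.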

How the data were processed

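Leukocytes of rat left ventricle, infarct and surrounding zone together, were released with enzymes, sorted for CD45 with propidium iodide and run on the 10x Genomics Chromium 3′ platform, per the labels' protocols. The authors deposited a matrix of UMI counts, not normalized, for 32623 genes in 29949 barcodes (155309082 UMIs). Its header names Cell Ranger 4.0.0. The genome build is not given in the sources used here. Rows of 1 symbol were summed. A deposited cell table lists 33756 barcodes, of which only 111 match a matrix barcode, suffix included. It was not used, and no suffix was tied to a group. The planned comparison of groups was therefore not made.

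Kept cells had at least 200 genes and at most 20% mitochondrial counts, which 315 and 235 barcodes failed. Scrublet, as run in scanpy 1.11.5, called 634 and 997 doublets (4.54% and 6.46%), which were left out. T, NK and B gates asked for 3 or more UMIs of own markers and at most 2 myeloid UMIs. NK, B and myeloid cells were allowed at most 1 UMI of each other lymphoid lineage, with Klrb1a not counted in dendritic cells. T cells were limited in B cell markers only, so they could carry NK receptors. The 12 NK markers summed to 3043 and 3187 CPM in T cells. Neutrophils and dendritic cells needed 2 or more UMIs of own markers, and neutrophils also 10 of S100a8 and S100a9. The other myeloid cells needed 3 or more UMIs of monocyte and macrophage markers. Of these, macrophages held 3 or more UMIs of the C1q genes. Adgre4 monocytes held 1 or more Adgre4 UMIs and no Vcan or Thbs1 UMI. Classical monocytes held 2 or more UMIs of Fcnb, Vcan, Thbs1 and F13a1. The rest were in none of the finer gates. T cells with Rag1, Rag2, Dntt or Ptcra formed a class of their own, and 3598 of 27768 cells entered no gate. Leiden clustering (resolution 1, 2000 variable genes, 30 components) gave 26 clusters.

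UMIs were summed per class and library and divided by the class total (CPM). Ratios are log2 of CPM + 10, so they understate changes of low genes. The script that computed them was tested on simulated data. The 7 genes, the wider list and the marker lists were chosen with earlier results of these data known, and gate thresholds and clusters were set after the data were seen. Named genes of the wider list are, per class, the up to 4 with the largest ratio at 50 CPM or more in the higher library. Values of Thbs1 and Id1 in finer classes were added after they were seen. Some genes are not reported here. Like genes are the 3 of highest r. Alternatives were another pseudocount, TMM scaling (edgeR 4.0.16), no minimum level, doublets kept, a stricter gate, classes from clusters, means over cells, sub-gates or clusters, and other depths of thinning. Promoters are from RefSeq.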

Additional observations from a re-analysis of the deposited data

Results flagged for a closer look

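Tgfb1 went in opposite directions between the libraries in different cell classes. Its log2 ratio, library 2 over library 1, was 0.18 in macrophages, and it was -0.14 in T cells, -0.10 in NK cells, -0.16 in classical monocytes and -0.23 in Adgre4 monocytes, each with Poisson intervals of the libraries apart. The difference between the classes was not tested, since each side is 1 library, and all of these ratios are under 1.5-fold. Within the 4 T cell clusters the intervals overlapped, with log2 ratios from -0.18 to 0.08. The naive-type cluster, at 99.3 and 105 CPM, held 490 of 2147 and 1059 of 3355 T cells, and the part of makeup was not tested. Intervals stayed apart in both NK clusters, at -0.18 and -0.43. They were also apart in the Fcnb monocyte cluster, at -0.32, and the Gpnmb macrophage cluster, at 0.26. The other monocyte and macrophage clusters overlapped.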

How the results depend on the processing

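Of the 9 ratios of the 7 genes past 1.5-fold in the 8 classes, 74 recomputations under 9 other settings all kept the sign, none reversed, and 63 stayed past 1.5-fold. The setting with no minimum level changes only which genes are compared, so it could not alter these 9 ratios. Pmepa1 stayed past 1.5-fold in every setting run, from -0.93 to -0.80 in T cells, -0.90 to -0.70 in NK cells and -0.87 to -0.78 in B cells. Smad7 in T cells came to -0.57 under TMM scaling, Skil in T cells to -0.53 and Smad7 in neutrophils to -0.57 as means over clusters, and Pmepa1 in dendritic cells to -0.42 under the stricter gate. Pmepa1 in Adgre4 monocytes ran from -2.78 to -0.82 and missed the threshold or the minimum level in 3 of 8 settings, and Tgfbr1 there from -0.95 to -0.31, missing in 4 of 8. The causes were not tested. TMM scaling moved all ratios of neutrophils by 0.1095 and of pooled myeloid cells by -0.1048 on the log2 scale.

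Counts moved as follows. Shares over all genes were computed under the main settings only, so the counts under other settings have no such share beside them and are a description. With levels as means over cells, 1 of the 7 genes (Smad7, -0.64) was lower in myeloid cells in place of 0. The stricter gate also brought Smad7 in Adgre4 monocytes (-0.88) and dendritic cells (-0.73) and Tgif1 in Adgre4 monocytes (-0.62) past 1.5-fold, and no minimum brought Pmepa1 in neutrophils (0.76). Of the wider list, higher genes in NK cells numbered 2 under TMM scaling and 1 each with classes from clusters, means over cells, a pseudocount of 1 CPM and the stricter gate, in place of 0. Higher genes in myeloid cells numbered 2 as means over cells and 1 each with no minimum, a pseudocount of 1 CPM and the stricter gate, in place of 0. Lower genes in B cells numbered 1 with doublets kept, with no minimum and under the stricter gate, in place of 0, and in NK cells 2 with no minimum, in place of 1. Lower genes in T cells numbered 1 as means over clusters and 5 with a pseudocount of 1 CPM, in place of 3. Lower genes in myeloid cells numbered 1 as means over clusters and 1 over sub-gates, in place of 3. The mean over clusters was chosen after seeing the data. Classes from clusters gave no value for dendritic cells at the numbers required.

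No paired analysis was possible because each group has 1 sample and the libraries could not be tied to the groups. With 1 library on each side, the spread between animals is unknown, and neither sorting, digestion nor sequencing can be told apart from any effect of treatment. At these depths Tgfbr1 in lymphocytes and Pmepa1 in neutrophils and Adgre4 monocytes rest on few UMIs.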

Other observations

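Thymocyte-like cells, T cells with UMIs of Rag1, Rag2, Dntt or Ptcra, numbered 15 in library 1 and 891 in library 2, so they are described in library 2 only. There Smad7 was 373 CPM (interval 351 to 397), Tgfb1 169 CPM (154 to 185), Pmepa1 107 CPM (95.6 to 120.4) and Skil 92.3 CPM (81.3 to 104). Tgfbr2 was 68.5 CPM (59.1 to 79.0), above the 38.9 CPM of other T cells of that library with intervals apart, and Tgfbr1 was 24.9 CPM (19.4 to 31.5) against 12.3 CPM. Tgif1 was 41.8 CPM (34.6 to 50.2) against 101 CPM. These cells thus held more of both receptors and less Tgif1 and Tgfb1 than the mature T cells beside them.

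The sort let through 105 and 40 stromal cells, marked by endothelial and fibroblast genes. Their Tgfbr2 level was 123 and 93.1 CPM and their Smad7 level 167 and 222 CPM, while Skil was 47.5 and 27.1 CPM, below every leukocyte class in each library. Pmepa1 was 127 and 105 CPM. Tgfbr1 was 14.996 and 45.7 CPM, from 18 and 27 UMIs.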
